A study of Homo sapiens with 24 samples.

Results

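Described here are 10 of the 20046 genes named by 30113 probes of the Illumina HumanHT-12 v4 array: the heat shock protein genes HSPA1A, HSPA1B, HSPA6, HSPA8, HSP90AA1, HSPB1, HSPH1 and DNAJB1, the HSP70 co-chaperone gene BAG3, and HSF1, which encodes the transcription factor of the heat shock response. They were chosen by name, with earlier results of these data known, and all 14 probes that the array annotation gives to them were read out of 47231. The arrays measured RNA from TMD8 cells, an established line of diffuse large B-cell lymphoma (DLBCL) of the activated B-cell type (ABC), and from DoHH2 cells, a line of the germinal center type (GCB), after 8 h in culture. TMD8 cells were given ITF-A at 100 nM, ITF-B at 200 nM or, as control, DMSO, the solvent of the compounds, and DoHH2 cells had the same treatments. ITF-A and ITF-B are histone deacetylase inhibitors (HDACi), compounds that keep acetyl groups on histones and other proteins. Each compound had DMSO arrays of its own in each line, which gave 8 groups of 3 arrays, 1 from each of 3 experiments, on 2 chips of 12 arrays. The doses of ITF-A and ITF-B differed, so their values are set side by side and no difference between them was tested. One line stands for each DLBCL type, so line and type cannot be told apart, and the arrays read RNA of whole cultures, so a change in some of the cells and a change in every cell cannot be told apart either.

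Heat shock proteins are chaperones: they bind unfolded proteins, help them to fold and hold them back from clumping. HSP70 proteins work in cycles driven by ATP, in which J-domain proteins such as DNAJB1 bring the client and start ATP use, and nucleotide exchange factors such as BAG3 and the HSP110 protein HSPH1 let the client go. HSP90 proteins take clients over at a later stage of folding, and small heat shock proteins such as HSPB1 hold unfolded proteins without ATP. Under heat or other protein stress, HSF1 is released from chaperones, forms trimers and binds heat shock elements, repeats of the unit GAA and its complement TTC, before its target genes. In human cells HSP90 is itself a substrate of a cytoplasmic histone deacetylase, HDAC6, and BAG3 links HSP70 clients to autophagy.

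The heat shock element was looked up in the 250 bases before each start site, in promoter sequences of NCBI RefSeq (build GRCh38.p14), which held 12 promoters of 9 of the 10 genes. The forms searched on both strands were GAANNTTC and TTCNNGAA, each its own reverse complement, and the 3-unit forms in which a further unit follows after 2 bases, which overlap the 2-unit matches they extend. Of 35116 promoters of all genes, 11.6% held a 2-unit match and 0.441% a 3-unit match. Here 7 of the 12 promoters, of 7 genes, held a 2-unit match, and 3 of them, of HSPA6, HSPA8 and HSP90AA1, a 3-unit match. The stretches that hold the matches are printed, with the matches in capitals, because these letters follow the repeat of the heat shock element. The genes that hold them moved in different directions on the arrays.

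HSPA1A, chr6:31815427-31815454, plus strand: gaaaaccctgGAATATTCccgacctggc
HSPA1B, chr6:31827623-31827650, plus strand: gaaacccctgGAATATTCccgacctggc
HSPA6, chr1:161524350-161524488, plus strand: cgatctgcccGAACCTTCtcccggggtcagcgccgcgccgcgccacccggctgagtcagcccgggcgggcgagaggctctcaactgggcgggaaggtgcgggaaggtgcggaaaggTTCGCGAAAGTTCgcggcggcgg
HSPA8, chr11:123062169-123062376, minus strand: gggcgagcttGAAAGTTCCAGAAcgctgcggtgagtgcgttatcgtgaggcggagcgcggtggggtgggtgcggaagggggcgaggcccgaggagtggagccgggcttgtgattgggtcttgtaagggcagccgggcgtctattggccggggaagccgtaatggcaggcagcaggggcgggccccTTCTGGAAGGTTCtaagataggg
HSP90AA1, chr14:102087095-102087142, minus strand: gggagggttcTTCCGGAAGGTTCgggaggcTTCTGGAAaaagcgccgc
HSPB1, chr7:76302481-76302508, plus strand: cttaacgagaGAAGGTTCcagatgaggg
DNAJB1, chr19:14518427-14518484, minus strand: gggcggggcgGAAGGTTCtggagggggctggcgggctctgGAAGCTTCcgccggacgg

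The 3-unit match of HSPA6 lay 74 to 62 bases before its start, and those of HSPA8 lay 230 to 218 and 55 to 43 bases before it. HSP90AA1 had a 3-unit match of the same length 88 to 76 bases before the start of the second of its promoters, and none in the first. HSPA1A and HSPA1B, neighbours on chromosome 6, had the same match 106 to 99 and 105 to 98 bases before their starts, and their promoters were identical at 235 aligned bases of 250 each (93.6%). The promoters of BAG3 and HSPH1 and the other pair of promoters of DNAJB1 held none of these letters in the window. A match is a string of letters, and no factor binding was measured.

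Raw intensities ran from 70.3 to 26194.5, with array medians of 93.2 to 112, and arrays of 1 group correlated at r of 0.993 to 0.996 over all probes. Levels below are log2 of the background-corrected, quantile-normalised intensity; the median over all probes is 6.16, and values near it are dim. A change is treated minus DMSO on this scale, from a limma fit over all 24 arrays with the chip as a term, and a gene is called where its p-value, adjusted over all 47231 probes, is under 0.05. Folds are on the same scale, which has an offset of 50 added to the intensities and so understates the change of dim probes. Of the B-cell markers, 5 were measured and all 5 were higher in TMD8 than in DoHH2 cells under DMSO, with CD79A at 12.18 to 12.42 in TMD8 and 11.37 to 11.95 in DoHH2 cells. PAX5, another of the 5, was near background, at 6.28 to 6.47 in TMD8 and 5.96 to 6.13 in DoHH2 cells under DMSO. All 4 T-cell markers were near background (5.86 to 6.54 on all arrays). The type labels were borne out in part: 5 of 6 ABC markers were higher in TMD8 cells (IRF4 10.97 to 11.45, against 10.20 to 10.55 in DoHH2 cells), but so were 4 of 6 GCB markers, BCL6 among them at 9.13 to 9.26 in TMD8 and 5.81 to 5.87 in DoHH2 cells, while the GCB marker MME was lower in TMD8 cells. The B-cell markers fell with treatment in TMD8 cells, 5 of 5 with each compound (median change -0.83 and -0.84 for ITF-A and ITF-B), and 2 and 3 of 5 fell in DoHH2 cells. All 6 ABC markers fell in TMD8 cells with each compound, while in DoHH2 cells 2 rose and 2 fell; of the 6 GCB markers 2 to 3 rose and 1 to 2 fell in each comparison. Of 3 measured myeloid markers 2 rose in all 4 comparisons, to 7.05 at most, and of 4 epithelial and stromal markers 1 to 2 rose and at most 1 fell, with 7.31 the highest level. Their part in the results below was not tested.

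BAG3, HSPA1B and DNAJB1 rose with both compounds in both lines, and HSPA1A rose in TMD8 cells. HSPH1 and HSF1 fell in all 4 comparisons. HSPA8 fell in DoHH2 cells. HSP90AA1 fell in DoHH2 cells and rose in TMD8 cells under ITF-B, and HSPB1 fell in TMD8 cells and rose in DoHH2 cells. Of the 4 HSPB1 calls only the fall under ITF-A in TMD8 cells held with median scaling of the arrays. Other alternatives given below ended that call as well. The falls of HSPA6 and HSF1 under ITF-A in TMD8 cells and of HSPH1 under ITF-B in TMD8 cells were not called with that scaling either. Of the 10 genes, 4 rose and 4 fell under ITF-A in TMD8 cells (over all genes 19.2% rose and 17.8% fell; without TMD8 ITF-A replicate 1 the 10 genes had 4 rises and 1 fall), and 5 rose and 3 fell under ITF-B (19.3% and 17.4%). In DoHH2 cells 5 rose and 4 fell under ITF-A (19% and 17.2%), and 4 rose and 4 fell under ITF-B (18.8% and 17%, or 13.6% and 20.9% where arrays were scaled to a common median). Among the 12688 genes whose probe is brighter than the median, 28.3% to 28.6% rose and 26% to 27.2% fell over the 4 comparisons. The median change of the 10 genes was 0.06 and 0.20 in TMD8 cells and 0.17 and 0.13 in DoHH2 cells, for ITF-A and ITF-B in that order, with the median of all genes within 0.01 of 0.

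**Figure D1:**
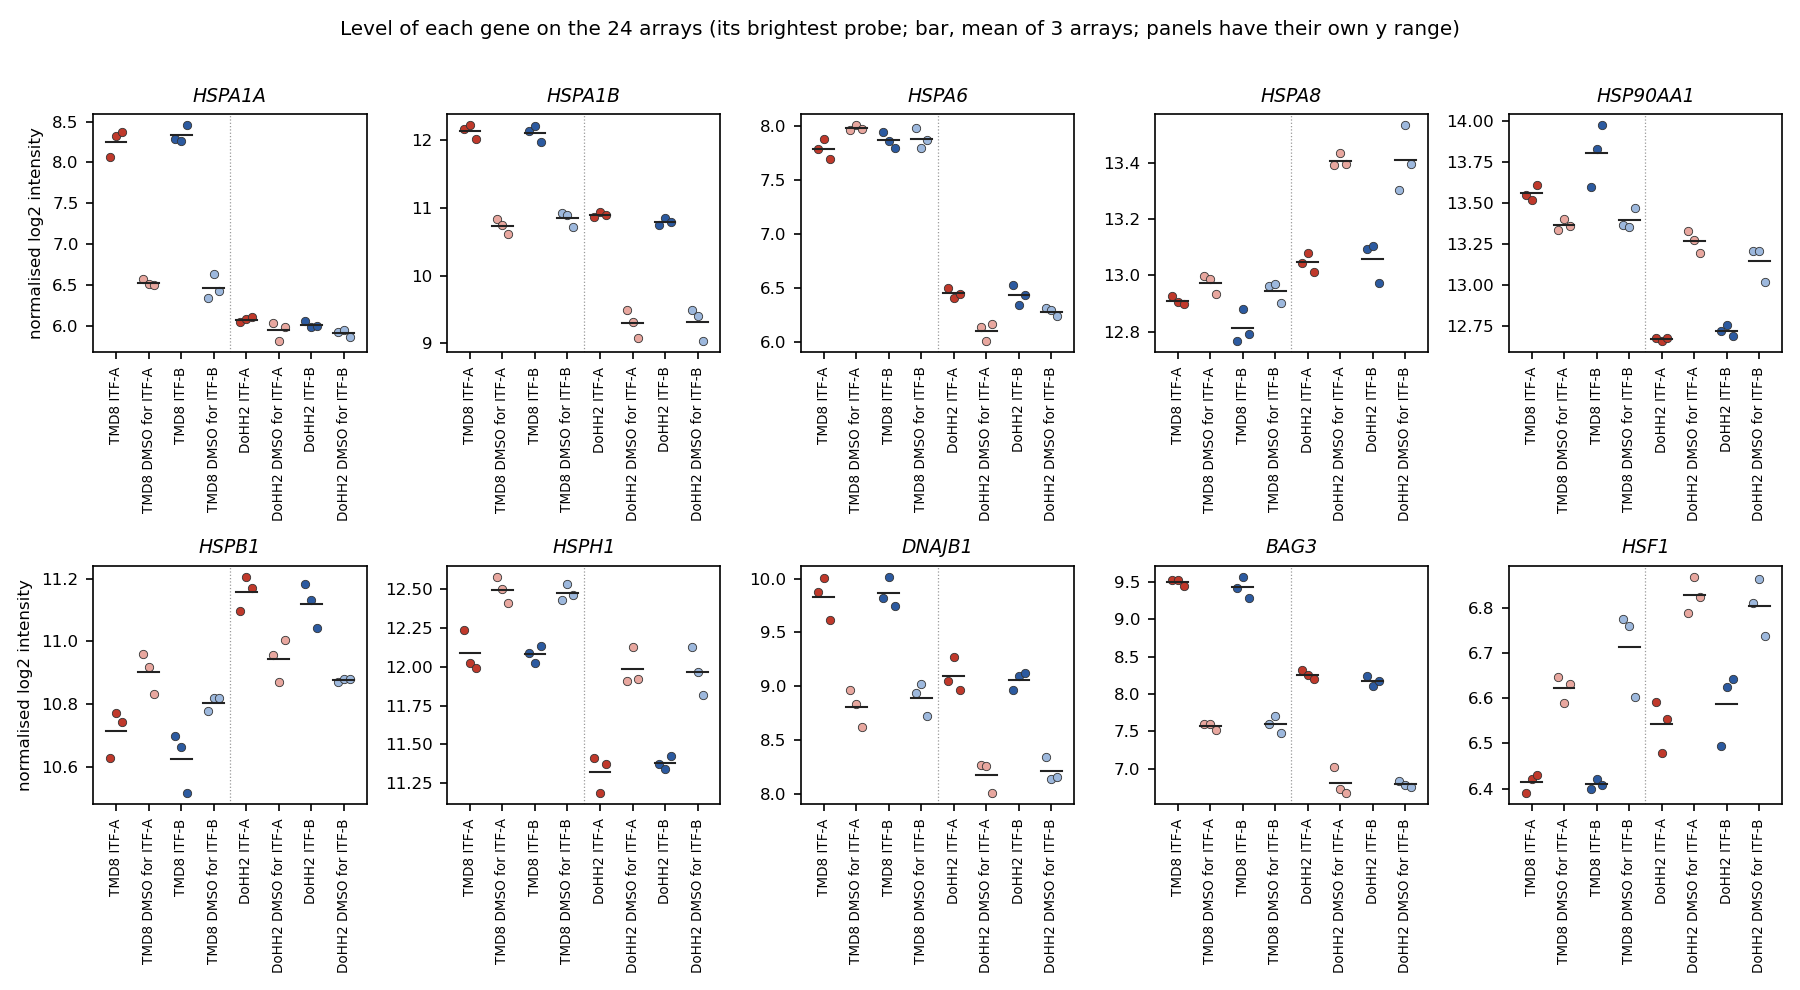
Normalised log2 intensity of the brightest probe of each gene on the 24 arrays, by group, with treated groups beside their own DMSO groups; points are arrays, bars the means of 3 arrays, and each panel has its own y range. BAG3 lay at 9.29 to 9.57 in treated TMD8 cells and 7.48 to 7.71 in their DMSO arrays, and at 8.10 to 8.32 in treated DoHH2 cells and 6.68 to 7.03 in theirs.

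BAG3, whose protein lets clients go from HSP70 and hands them to autophagy, had the largest mean rise of the 10 genes. In TMD8 cells its level (probe ILMN_1659766) was 9.53, 9.53 and 9.45 under ITF-A, against 7.59, 7.60 and 7.52 with DMSO. With ITF-B it was 9.42, 9.57 and 9.29 in TMD8 cells, against 7.59, 7.71 and 7.48 with DMSO. Every treated TMD8 array lay above every DMSO array. In DoHH2 cells BAG3 was at 8.32, 8.26 and 8.20 under ITF-A, against 7.03, 6.73 and 6.68 with DMSO. With ITF-B it was at 8.24, 8.10 and 8.18 in DoHH2 cells, against 6.84, 6.78 and 6.76 with DMSO. No treated array overlapped its DMSO group in either line. The rise was 3.82-fold under ITF-A and 3.56-fold under ITF-B in TMD8 cells, log2 changes of 1.93 and 1.83, and 2.73-fold and 2.61-fold in DoHH2 cells, log2 changes of 1.45 and 1.38 (SE 0.08 each, adjusted p 4.9e-18 or less).

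HSPA1B encodes the stress-inducible cytoplasmic HSP70, a protein that HSPA1A encodes as well. Its level (probe ILMN_1660436) was 12.16, 12.23 and 12.02 in TMD8 cells under ITF-A, against 10.83, 10.75 and 10.61 with DMSO. ITF-B gave 12.13, 12.20 and 11.97 in TMD8 cells, against 10.93, 10.90 and 10.73 with DMSO. HSPA1B was thus bright already in TMD8 cells under DMSO and brighter still on every treated array. In DoHH2 cells HSPA1B was at 10.86, 10.94 and 10.90 under ITF-A, against 9.50, 9.32 and 9.09 with DMSO. ITF-B gave 10.75, 10.85 and 10.80 in DoHH2 cells, against 9.50, 9.41 and 9.03 with DMSO. Treated DoHH2 cells thus reached the range that TMD8 cells held under DMSO. The rise was 2.65-fold under ITF-A and 2.38-fold under ITF-B in TMD8 cells (log2 1.41 and 1.25), and 3.03-fold and 2.80-fold in DoHH2 cells (log2 1.60 and 1.49, SE 0.09 each, adjusted p 9.52e-16 or less).

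HSPA1A, read by its own probe (ILMN_1789074), was at 8.07, 8.32 and 8.37 in TMD8 cells under ITF-A, against 6.58, 6.52 and 6.5 with DMSO. With ITF-B the levels in TMD8 cells were 8.29, 8.26 and 8.46, against 6.35, 6.63 and 6.43 with DMSO. The gap between treated and DMSO arrays was wider than the spread of either group, a rise of 3.30-fold under ITF-A and 3.64-fold under ITF-B (log2 1.72 and 1.87, SE 0.08, adjusted p 1.78e-21 or less). In DoHH2 cells every array lay at the level of dim probes: 6.05, 6.08 and 6.11 under ITF-A, against 6.04, 5.82 and 5.99 with DMSO. ITF-B gave 6.06, 6.0 and 6.0 in DoHH2 cells, against 5.93, 5.95 and 5.86 with DMSO. Its raw intensity in DoHH2 cells was 88.2 to 106, no brighter than a typical probe of the array, so the signal limits what the test could show there. The DoHH2 changes were 0.13 (95% confidence interval -0.02 to 0.29) and 0.10 (-0.05 to 0.26) and did not pass the test. The mRNAs of HSPA1A and HSPA1B are nearly the same, so the probe of either gene may pick up RNA of the other, and how far it did was not tested.

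DNAJB1, the J-domain protein that serves the inducible HSP70, rose in all 4 comparisons. Its level (probe ILMN_1775304) was 9.88, 10.004 and 9.62 in TMD8 cells under ITF-A, against 8.96, 8.83 and 8.62 with DMSO. ITF-B gave 9.82, 10.02 and 9.75 in TMD8 cells, against 8.94, 9.02 and 8.72 with DMSO. Within each pair of arrays from 1 experiment the treated array was higher, as it was in DoHH2 cells. There the levels were 9.05, 9.27 and 8.97 under ITF-A, against 8.27, 8.26 and 8.01 with DMSO. ITF-B gave 8.97, 9.10 and 9.12 in DoHH2 cells, against 8.34, 8.14 and 8.15 with DMSO. DNAJB1 rose 2.04-fold and 1.96-fold in TMD8 cells under ITF-A and ITF-B (log2 1.03 and 0.97), and 1.89-fold and 1.80-fold in DoHH2 cells (log2 0.92 and 0.85, SE 0.09 each, adjusted p 7.44e-10 or less). The groups did not overlap in any of the 4 comparisons.

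HSPA6, an inducible HSP70 gene that mice lack and that is nearly silent in unstressed human cells, stayed apart from HSPA1A, HSPA1B and DNAJB1. Its brighter probe (ILMN_1806165) was at 7.79, 7.88 and 7.69 in TMD8 cells under ITF-A, against 7.96, 8.01 and 7.97 with DMSO, and at 7.79 to 7.94 under ITF-B, against 7.79 to 7.98 with DMSO. In DoHH2 cells it was at 6.5, 6.41 and 6.45 under ITF-A, against 6.14, 6.01 and 6.17 with DMSO, and at 6.35 to 6.53 under ITF-B, against 6.24 to 6.31 with DMSO. The only overlap was in TMD8 cells under ITF-B. ITF-A gave a fall in TMD8 cells (log2 -0.19, SE 0.07, adjusted p 0.0344) and a rise in DoHH2 cells (0.34, SE 0.07, adjusted p 1.17e-04), while ITF-B gave -0.01 and 0.15, neither of which passed the test. The fall in TMD8 cells was not called without ITF-A replicate 1 (-0.19, adjusted p 0.102) or 3 (-0.15, 0.196) or DMSO replicate 2 (-0.18, 0.117) or 3 (-0.20, 0.0709), nor with median scaling (-0.17, 0.133) or on either chip alone (-0.20 and -0.18). The ITF-A rise in DoHH2 cells was not called on chip 1 alone, where DoHH2 cells had 1 array a group. The other probe of HSPA6 (ILMN_1658383) stayed at 5.84 to 6.24 on all arrays, near background. Under ITF-A it gave 0.06 in DoHH2 cells (adjusted p 0.698) and 0.15 in TMD8 cells (0.185), so it called neither the rise nor the fall.

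HSPH1, the HSP110 protein that serves HSP70 as exchange factor, fell in every comparison. Its level (probe ILMN_1712888) was 12.24, 12.02 and 11.99 in TMD8 cells under ITF-A, against 12.58, 12.50 and 12.41 with DMSO. ITF-B gave 12.09, 12.02 and 12.13 in TMD8 cells, against 12.43, 12.53 and 12.46 with DMSO. All treated TMD8 arrays lay below the DMSO arrays. In DoHH2 cells HSPH1 was at 11.41, 11.19 and 11.37 under ITF-A, against 11.91, 12.12 and 11.92 with DMSO. ITF-B gave 11.37, 11.34 and 11.43 in DoHH2 cells, against 12.12, 11.97 and 11.82 with DMSO. The fall was 1.33-fold and 1.31-fold in TMD8 cells under ITF-A and ITF-B (log2 -0.41 and -0.39, adjusted p 4.3e-05 and 8.37e-05), and 1.58-fold and 1.5-fold in DoHH2 cells (log2 -0.66 and -0.59, adjusted p 3.63e-09 and 5.26e-08, SE 0.08 each). The call under ITF-B in TMD8 cells was lost with median scaling of the arrays (-0.24, adjusted p 0.0649).

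HSF1, the master transcription factor of the response, had a dim probe (ILMN_1667060, raw intensity 110 to 154). It was at 6.39, 6.42 and 6.43 in TMD8 cells under ITF-A, against 6.65, 6.59 and 6.63 with DMSO, and at 6.4 to 6.42 under ITF-B, against 6.6 to 6.78 with DMSO. In DoHH2 cells it was at 6.48 to 6.59 under ITF-A, against 6.79 to 6.87 with DMSO, and at 6.49 to 6.64 under ITF-B, against 6.74 to 6.86 with DMSO. Every treated array was below every array of its DMSO group, by small steps. The falls were -0.21 and -0.30 in TMD8 cells under ITF-A and ITF-B (adjusted p 0.0141 and 2.99e-04), and -0.29 and -0.22 in DoHH2 cells (adjusted p 6.66e-04 and 0.011, SE 0.07 each). The call under ITF-A in TMD8 cells was lost without ITF-A replicate 1 (-0.19, adjusted p 0.0642) or DMSO replicate 1 (-0.20, 0.0525), and that under ITF-B in DoHH2 cells without ITF-B replicate 1 (-0.17, 0.107) or DMSO replicate 2 (-0.19, 0.0687). Median scaling also ended the ITF-A call of HSF1 in TMD8 cells (-0.17, adjusted p 0.0823), as did each chip alone (-0.18 and -0.26), and on chip 1 alone neither DoHH2 fall was called (-0.27 and -0.10). HSF1 is switched on mainly as a protein, which the arrays did not measure.

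HSPA8, the constitutive HSP70 of the cytoplasm, was among the brightest probes of the array in both lines. Its brighter probe (ILMN_2413084) was at 12.90 to 12.93 in TMD8 cells under ITF-A, against 12.93 to 13.00 with DMSO, and at 12.77 to 12.88 under ITF-B, against 12.90 to 12.97 with DMSO. Neither change in TMD8 cells passed the test (log2 -0.06, 95% confidence interval -0.20 to 0.07, and -0.13, -0.26 to 0.00). In DoHH2 cells HSPA8 was at 13.04, 13.08 and 13.01 under ITF-A, against 13.39, 13.44 and 13.39 with DMSO. ITF-B gave 13.09, 13.11 and 12.97 in DoHH2 cells, against 13.30, 13.53 and 13.39 with DMSO. The treated DoHH2 arrays thus came down to near the level of TMD8 cells, a fall of 1.28-fold with each compound (log2 -0.36 and -0.35, SE 0.07, adjusted p 2.24e-05 and 3.24e-05). The other HSPA8 probe (ILMN_1686367) gave -0.14 and -0.01 in TMD8 cells, neither called, and falls of -0.24 and -0.41 in DoHH2 cells.

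HSP90AA1 encodes HSP90 alpha, the form of cytoplasmic HSP90 that stress induces. Its brightest probe (ILMN_2373515) was at 13.55, 13.52 and 13.61 in TMD8 cells under ITF-A, against 13.34, 13.41 and 13.36 with DMSO. ITF-B gave 13.60, 13.83 and 13.98 in TMD8 cells, against 13.37, 13.35 and 13.47 with DMSO. Treated TMD8 arrays were all above their DMSO arrays, and in DoHH2 cells the order was the reverse. There HSP90AA1 was at 12.68, 12.66 and 12.68 under ITF-A, against 13.33, 13.28 and 13.20 with DMSO. ITF-B gave 12.72, 12.76 and 12.69 in DoHH2 cells, against 13.21, 13.21 and 13.02 with DMSO. With ITF-B the rise in TMD8 cells passed the test (log2 0.41, adjusted p 2.47e-05). On chips 1 and 2 alone this rise was 0.49 and 0.23, called on chip 1 only, and TMD8 cells had 1 array a group on chip 2. Under ITF-A the change of 0.19 in TMD8 cells did not pass the test (SE 0.07, adjusted p 0.0558). That ITF-A change was called with the experiment as a replicate block in place of the chip (adjusted p 0.0400), with each treated and DMSO pair as a block (0.0461), and without DoHH2 DMSO for ITF-B replicate 3 (0.0465) or TMD8 ITF-B replicate 1 (0.0300) or 3 (0.0385), each of which left the value at 0.19. It was called as well with median scaling (0.27, adjusted p 0.0244), with no background correction (0.0302), in the deposited log2 table (0.0306) and among bright probes alone (0.0350). In DoHH2 cells HSP90AA1 fell 1.51-fold under ITF-A and 1.34-fold under ITF-B (log2 -0.60 and -0.42, adjusted p 1.42e-08 and 1.36e-05).

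A second bright HSP90AA1 probe (ILMN_1691097) rose in TMD8 cells, by 0.50 under ITF-A and 0.48 under ITF-B, and fell in DoHH2 cells, by 0.50 and 0.43 on the log2 scale (adjusted p 2.5e-06 or less for the 4 changes). It was at 13.04 to 13.16 in treated TMD8 cells, against 12.51 to 12.71 with DMSO, and at 12.03 to 12.15 in treated DoHH2 cells, against 12.44 to 12.69 with DMSO. Both bright HSP90AA1 probes thus gave the same directions. A dim probe (ILMN_1687546, 6.07 to 6.62 on all arrays) rose in TMD8 cells as well, by 0.33 and 0.45, and gave 0.16 and 0.08 in DoHH2 cells, where neither passed the test. This dim probe and the second bright one carry the annotation of 1 transcript record of HSP90AA1, and the brightest probe that of another.

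**Figure D2:**
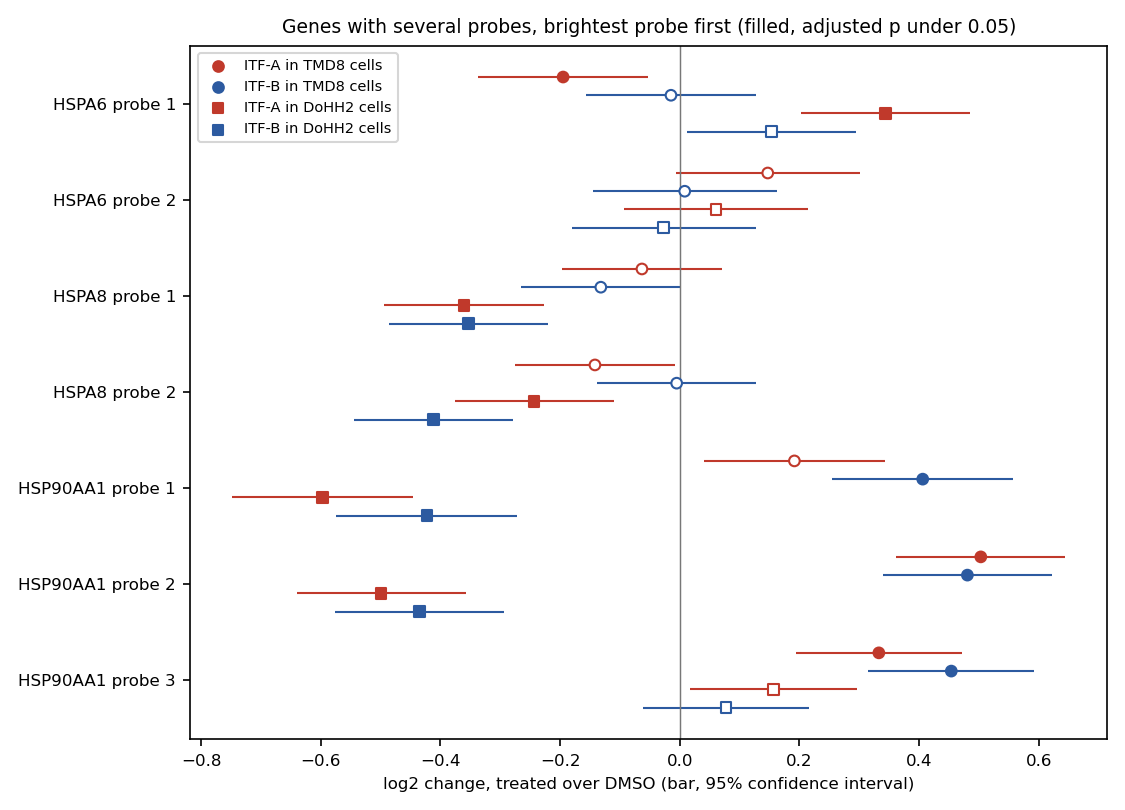
Log2 change, treated over DMSO, of every probe of the 3 genes with several probes, in the 4 comparisons; filled points passed an adjusted p under 0.05 and bars are 95% confidence intervals. The bright HSP90AA1 probes lie right of 0 in TMD8 and left of 0 in DoHH2 cells, whereas the dim probe 3 of HSP90AA1 and probe 2 of HSPA6 do not share the directions of the brighter probes in all comparisons.

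HSPB1, the small heat shock protein HSP27, moved little. Its level (probe ILMN_1674236) was 10.63, 10.77 and 10.74 in TMD8 cells under ITF-A, against 10.96, 10.92 and 10.83 with DMSO, and 10.70, 10.66 and 10.52 under ITF-B, against 10.78, 10.82 and 10.82 with DMSO. In DoHH2 cells it was 11.10, 11.21 and 11.17 under ITF-A, against 10.96, 10.87 and 11.00 with DMSO, and 11.18, 11.13 and 11.04 under ITF-B, against 10.87, 10.88 and 10.88 with DMSO. Groups did not overlap, with treated arrays lower in TMD8 and higher in DoHH2 cells. The falls in TMD8 cells were -0.19 under ITF-A (adjusted p 0.0338) and -0.18 under ITF-B (0.0478). The rises in DoHH2 cells were 0.22 under ITF-A (0.0138) and 0.24 under ITF-B (0.00525), SE 0.07 each, and both became -0.01 with median scaling of the arrays. The ITF-B fall in TMD8 cells was -0.11 with that scaling and was not called (adjusted p 0.317). With the experiment as a replicate block the ITF-B fall had an adjusted p of 0.0549, and with treated and DMSO arrays as pairs 0.0713, while the ITF-A fall had 0.0527 with these pairs. The ITF-A fall was not called without ITF-A replicate 1 (-0.14, adjusted p 0.227) or DMSO replicate 1 (-0.16, 0.159) or 2 (-0.18, 0.0913). An offset of 16, or a fit of the arrays of this comparison alone, ended the ITF-A call too. The ITF-B fall of HSPB1 was not called without 12 of the 24 arrays, each in turn: without TMD8 ITF-B replicate 3 it was -0.12 and without replicate 2 -0.20, without DMSO for ITF-B replicate 1 -0.20 and replicates 2 and 3 -0.17 each, and without any of 7 arrays of other groups it stayed at -0.18 with an adjusted p of 0.0509 to 0.0527 (TMD8 ITF-A replicate 3, TMD8 DMSO for ITF-A replicate 2, DoHH2 ITF-A replicate 3, DoHH2 ITF-B replicate 2, and DoHH2 DMSO for ITF-B replicates 1, 2 and 3). The ITF-A rise in DoHH2 cells was not called without ITF-A replicate 2 (0.19, 0.0711) or 3 (0.21, 0.0507) or DMSO replicate 2 (0.18, 0.0948).

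**Figure D3:**
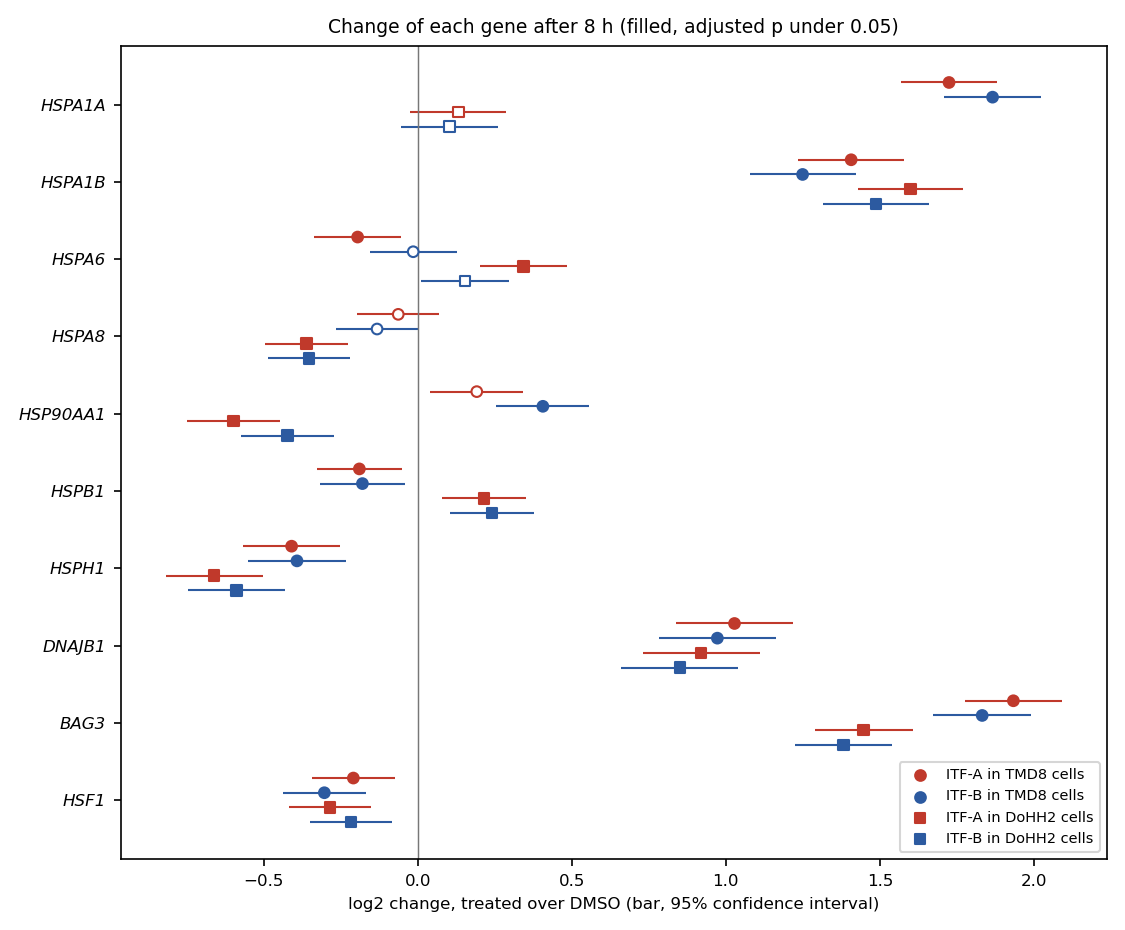
Log2 change, treated over own DMSO arrays, of the 10 genes in the 4 comparisons (circles TMD8, squares DoHH2 cells); filled points passed an adjusted p under 0.05 and bars are 95% confidence intervals. BAG3, HSPA1B and DNAJB1 lie between 0.85 and 1.93 in every comparison, and HSPA1A lies at 1.72 and 1.87 in TMD8 and 0.13 and 0.10 in DoHH2 cells.

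Each chip held arrays of all 8 groups, and the rises were read within each chip too. With ITF-A in TMD8 cells BAG3 changed by 1.93 on chip 1 and 1.94 on chip 2, HSPA1B by 1.45 and 1.33, HSPA1A by 1.84 and 1.49, and DNAJB1 by 1.08 and 0.91. With ITF-B in TMD8 cells BAG3 changed by 1.83 on each chip, HSPA1B by 1.27 and 1.20, HSPA1A by 1.83 and 1.94, and DNAJB1 by 1.01 and 0.89. In DoHH2 cells BAG3 changed by 1.52 and 1.41 under ITF-A and 1.42 and 1.36 under ITF-B, HSPA1B by 1.81 and 1.49 and by 1.77 and 1.35, and DNAJB1 by 0.96 and 0.90 and by 0.97 and 0.79. These were all called on each chip alone. HSPH1 fell by 0.44 and 0.34 under ITF-A and by 0.42 and 0.34 under ITF-B in TMD8 cells, called on chip 1 only, and in DoHH2 cells it was called on both. HSP90AA1 in DoHH2 cells gave -0.52 and -0.64 under ITF-A, called on both chips, and -0.33 and -0.47 under ITF-B, called on chip 2 only. TMD8 cells had 1 array a group on chip 2 and DoHH2 cells 1 on chip 1, and these lone arrays were taken to vary like the other groups.

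Under DMSO the lines differed in most of these genes: 7 of the 10 were higher and 2 lower in TMD8 than in DoHH2 cells (over all genes 21.2% higher and 22.6% lower, or 15.6% and 28.8% with median scaling). Among genes brighter than the median 31.6% were higher and 33.6% lower. The median difference of the 10 genes was 0.54. HSPA6 differed most, at 7.79 to 8.01 on the 6 DMSO arrays of TMD8 and 6.01 to 6.31 on the 6 of DoHH2 cells, 3.35-fold (log2 1.74, SE 0.05). The 6 DMSO arrays of a line came from 3 experiments and the fit took them as separate, so the SE and adjusted p of these line differences may be too small. HSPA1B was at 10.61 to 10.93 in TMD8 and 9.03 to 9.50 in DoHH2 cells, 2.89-fold (log2 1.53). By these probes HSPA6 and HSPA1B, inducible HSP70 genes, were thus higher in TMD8 cells with no compound added. On them no array of one line reached the range of the other. The dim other probe of HSPA6 (ILMN_1658383) gave a difference of only 0.18 (adjusted p 0.00981), with overlapping groups. BAG3 differed by 0.80, DNAJB1 by 0.69, HSPA1A by 0.55 and HSPH1 by 0.53, all without overlap (adjusted p 1.99e-10 or less), though HSPA1A was dim in DoHH2 cells. HSPA8 was lower in TMD8 cells, at 12.90 to 13.00, against 13.30 to 13.53 in DoHH2 cells (log2 -0.44, adjusted p 2.68e-10). HSP90AA1 differed by 0.17 (adjusted p 0.0103) and this call was lost without DoHH2 DMSO for ITF-A replicate 3 (0.15, adjusted p 0.0622) or DoHH2 DMSO for ITF-B replicate 3 (0.13, 0.104), with the value at -0.01 under median scaling. The second bright probe of HSP90AA1 gave 0.07 for the DMSO arrays (adjusted p 0.408, not called), and the dim one -0.18 (0.00288). HSF1 differed by -0.14 (adjusted p 0.0169) with overlapping groups, and its call was lost without TMD8 DMSO for ITF-B replicate 3 (-0.12, 0.0610). With the experiment as a replicate block HSF1 gave -0.17 (0.0646). These blocks lie within lines, so that fit reads the line difference at experiment 3 and is no check of the call. HSPB1 was at 10.78 to 10.96 in TMD8 and 10.87 to 11.00 in DoHH2 cells and did not pass the test (-0.06, 95% confidence interval -0.16 to 0.04), though with median scaling it was called lower (-0.36).

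The change itself differed between the lines in 6 of the 10 genes under ITF-A (22.4% of all genes, in either direction) and in 4 under ITF-B (22.5%). Among genes brighter than the median, 17% had a positive and 16.7% a negative difference under ITF-A. Under ITF-B these shares were 17.6% and 16.5%, and neither count was tested against them. Over all genes 51.1% and 52.3% of the calls of such a difference were positive, or 65.5% and 76.3% with median scaling, and here 4 of 6 and 3 of 4 were. HSPA1A had the widest gap, with a change greater in TMD8 cells by 1.59 for ITF-A and 1.76 for ITF-B (SE 0.11, adjusted p 6.15e-15 and 3.03e-16), with 1.72 and 1.35 and then 1.69 and 1.86 on chips 1 and 2 alone, and it is the gene that lay at the level of dim probes in DoHH2 cells. HSP90AA1 followed, with 0.79 and 0.83 (SE 0.11, adjusted p 2e-07 and 6.96e-08), with called falls in DoHH2 cells and, in TMD8 cells, a called rise under ITF-B and the uncalled 0.19 under ITF-A. Its second bright probe gave 1.0 and 0.92, its dim probe gave 0.18, not called (adjusted p 0.295), and 0.38 (0.00433), and on the chips alone the gap of HSP90AA1 was 0.70 and 0.85 for ITF-A and 0.82 and 0.70 for ITF-B, called each time. BAG3 rose more in TMD8 cells by 0.49 (adjusted p 0.00112) and 0.45 (0.00268). This gap of BAG3 was smaller with an offset of 16 (0.35 and 0.31, adjusted p 0.194 and 0.269), and neither chip alone called it (0.41 and 0.53 for ITF-A, 0.41 and 0.47 for ITF-B). HSPB1 gave -0.40 and -0.42 (adjusted p 0.00173 and 0.00112), which median scaling took to -0.19 and -0.10 without a call. The chips alone gave -0.29 and -0.57 for HSPB1 under ITF-A, called on chip 2 only, and -0.39 and -0.36 under ITF-B, not called. HSPA6 differed under ITF-A (-0.54, adjusted p 6.01e-05; -0.48 and -0.56 on the chips, called on chip 2 only) and did not pass the test under ITF-B (-0.17, 95% confidence interval -0.37 to 0.03).

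HSPA8 differed between the lines under ITF-A (0.30, SE 0.09, adjusted p 0.0225) and missed the threshold under ITF-B (0.22, 0.124), and its other probe gave 0.10 and 0.41, called for ITF-B. The ITF-A call of HSPA8 was lost without DoHH2 ITF-A replicate 3 (0.29, adjusted p 0.0501) or TMD8 DMSO for ITF-A replicate 3 (0.28, 0.0539), and the ITF-B value was called without DoHH2 DMSO for ITF-B replicate 1 (0.28, 0.0439). The difference for HSPA1B was -0.19 (95% confidence interval -0.44 to 0.05) under ITF-A and -0.24 (-0.48 to 0.01) under ITF-B, and it turned to 0.06 and 0.18 with median scaling. DNAJB1 gave 0.11 (-0.16 to 0.38) and 0.12 (-0.15 to 0.39), and HSF1 0.08 (-0.11 to 0.27) and -0.09 (-0.28 to 0.10). HSPH1 gave 0.25 (0.03 to 0.47) and 0.20 (-0.03 to 0.42), which did not pass the test after adjustment but did with median scaling (0.51 and 0.54).

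**Figure D4:**
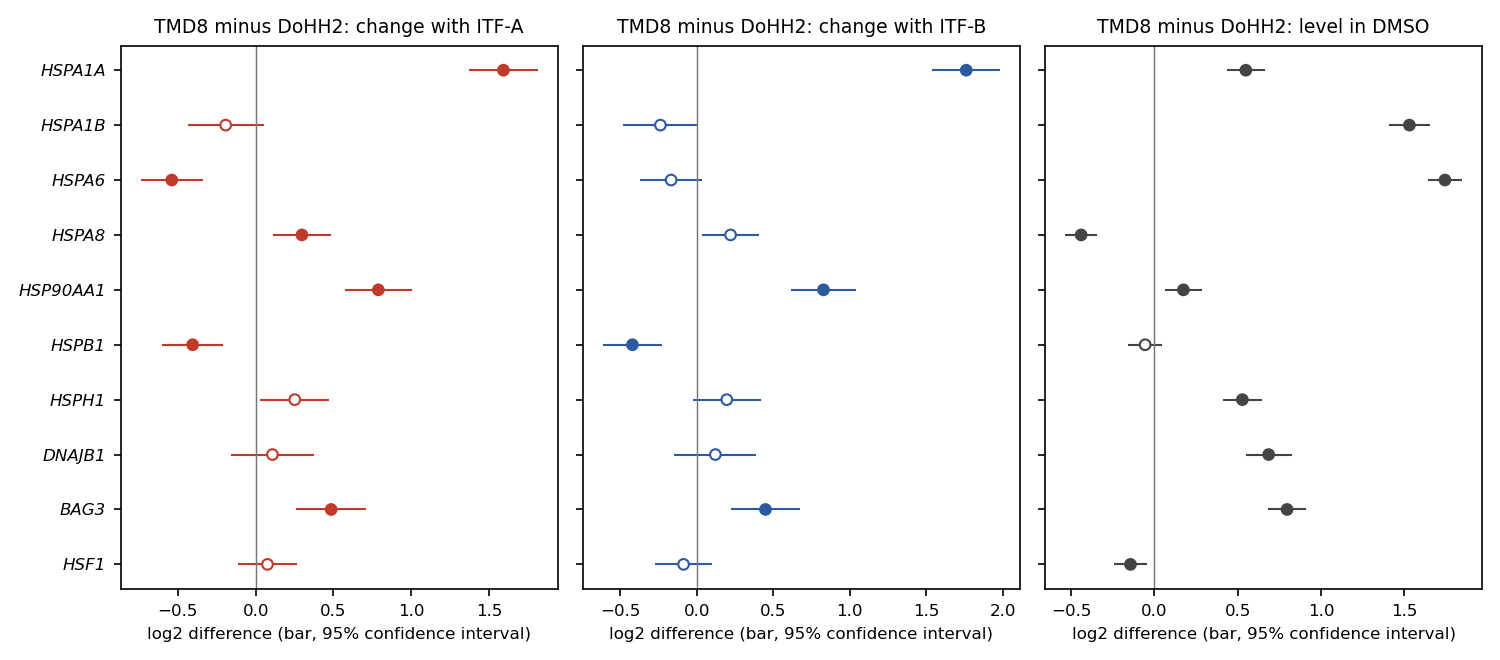
Difference between the lines, TMD8 minus DoHH2 cells, for each gene: in the log2 change under ITF-A (left), in that under ITF-B (middle), and in the log2 level under DMSO (right); filled points passed an adjusted p under 0.05 and bars are 95% confidence intervals. HSPA1A at 1.59 and 1.76 and HSP90AA1 at 0.79 and 0.83 lie farthest to the right for the changes, and HSPA6 at 1.74 and HSPA1B at 1.53 for the DMSO levels.

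Set against the promoter search, the genes that rose in both lines included HSPA1B and DNAJB1, with 2-unit matches, and BAG3, with none in its window. HSPA8 had 2 of the 3-unit matches and gave the falls described above, and HSPH1 had no match and fell. HSPA6, with a 3-unit match, changed by 0.34 at most. HSPA1A, HSP90AA1 and HSPB1 had matches too, and their changes are given above. Among the 9 genes searched, those with a match and those without one each included rises and falls. Imperfect matches and sequence outside the window were not searched. Whether HSF1 had a part in any of these changes was not tested.

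Genes that work with these chaperones were counted by list. Over the 4 comparisons 18.8% to 19.3% of all genes rose and 17% to 17.8% fell. Among genes brighter than the median 28.3% to 28.6% rose and 26% to 27.2% fell. Several counts below lie near these shares, and no list was tested. Of 9 measured ubiquitin and autophagy partners of BAG3, 5 rose and 1 fell in each of the 4 comparisons. MAP1LC3B, the LC3 protein of autophagosomes, rose by 1.62 and 1.63 in TMD8 and 1.40 and 1.42 in DoHH2 cells under ITF-A and ITF-B, and STUB1, the ubiquitin ligase CHIP that marks HSP70 clients, by 1.15 and 1.02 and by 0.55 and 0.71. SQSTM1, OPTN and UBB were the others that rose, the first 2 being autophagy receptors and UBB a ubiquitin gene. TFEB, a transcription factor of lysosome genes, fell by 0.72 and 0.75 in TMD8 and by 0.47 and 0.61 in DoHH2 cells. The list's median change was 0.28 to 0.38 over the 4 comparisons, with that of all genes within 0.01 of 0. HSPB8, the small heat shock protein that BAG3 binds, gave changes of -0.13 to 0.01 with none called, at a dim mean level of 5.86.

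Among the other BAG proteins BAG2, which in human cells holds back CHIP, fell by 1.25 and 1.04 in TMD8 and by 1.20 and 1.12 in DoHH2 cells. BAG5 rose by 0.27 and 0.32 in TMD8 cells, and its 0.09 and 0.00 in DoHH2 cells were not called. Of 11 other HSP70 and HSP110 genes, 5 rose and 1 fell with each compound in TMD8 cells, against 4 and 2 under ITF-A and 2 and 3 under ITF-B in DoHH2 cells. The ITF-B counts in DoHH2 cells lie near the shares of all genes or of the brighter ones. HSPA5, the HSP70 of the endoplasmic reticulum, rose by 0.79 with each compound in TMD8 and by 0.31 and 0.38 in DoHH2 cells, and HSPA2 by 0.58 and 0.39 and by 0.66 and 0.73. None of 8 measured other small heat shock proteins was called in any comparison by limma, with 0 at an unadjusted p under 0.05 as well, and each had a mean level of 6.30 or less, among the dim probes. Of the 3 other HSP90 genes none was called in TMD8 cells by limma (2 under ITF-A and 1 under ITF-B at an unadjusted p under 0.05), whereas in DoHH2 cells HSP90B1, the HSP90 of the endoplasmic reticulum, rose by 0.82 and 0.74, HSP90AB1, the constitutive cytoplasmic form, fell by 0.31 and 0.38, and TRAP1, the mitochondrial form, fell by 0.39 and 0.45. Of 4 other heat shock factors and HSF1 binding proteins at most 1 was called in each direction.

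J-domain genes other than DNAJB1 moved both ways: of 37, 7 rose and 13 fell under ITF-A and 6 and 16 under ITF-B in TMD8 cells, against 10 and 12 and then 11 and 14 in DoHH2 cells. Among those called in at least 3 comparisons, DNAJC1 and GAK had the largest mean rises and DNAJB12 and DNAJC7 the largest mean falls, DNAJB12 at -0.84 and -0.83 in TMD8 and -1.09 and -1.02 in DoHH2 cells. DNAJC12, singled out after its values were seen, rose by 1.58 and 1.51 in TMD8 cells, and in DoHH2 cells it gave -0.09, not called, and a fall of -0.21. The cytoplasmic and mitochondrial chaperonins, ring-shaped folding machines, and their helpers mostly fell: 10 of 16 under ITF-A and 9 under ITF-B in TMD8 cells, and 12 and 11 in DoHH2 cells, with at most 1 rise. HSPE1, the mitochondrial HSP10, fell by 0.50 and 0.35 and by 0.96 and 0.92, and VBP1, a prefoldin subunit, by 0.66 and 0.71 and by 0.65 and 0.63. Of 12 mitochondrial chaperones and proteases, which share HSPE1 and other members with that list, 5 and 4 fell in TMD8 cells and 10 and 10 in DoHH2 cells, CLPP, a mitochondrial protease, by 0.74 and 0.75 and by 1.08 and 1.08.

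Of 17 other genes that heat induces through HSF1, 4 and 3 rose and 6 and 4 fell in TMD8 cells, and 3 and 3 rose and 9 and 8 fell in DoHH2 cells under ITF-A and ITF-B, with list medians of -0.31 to -0.12. DNAJB6 rose by 0.83 and 0.75 and by 0.20 and 0.19, and FKBP4, an HSP90 co-chaperone, fell by 0.50 and 0.51 and by 1.28 and 1.17. The fall counts under ITF-B in TMD8 cells are near the share over all genes (4 of 17, against 17.4%), as are the rises in all 4 comparisons, and no test of the list was made. Of 14 HSP70 and HSP90 co-chaperones 4 to 5 rose and 2 to 4 fell, CDC37, which brings kinases to HSP90, rising by 0.63 and 0.72 and by 0.79 and 0.75. Of 15 endoplasmic reticulum chaperones 5 to 6 rose and 1 to 2 fell. Under DMSO 12 of them were lower and 0 higher in TMD8 than in DoHH2 cells by limma (0 higher at an unadjusted p under 0.05). Over all genes 22.6% were lower and 21.2% higher. These lists share members and were picked for their links with the 10 genes.

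**Figure D5:**
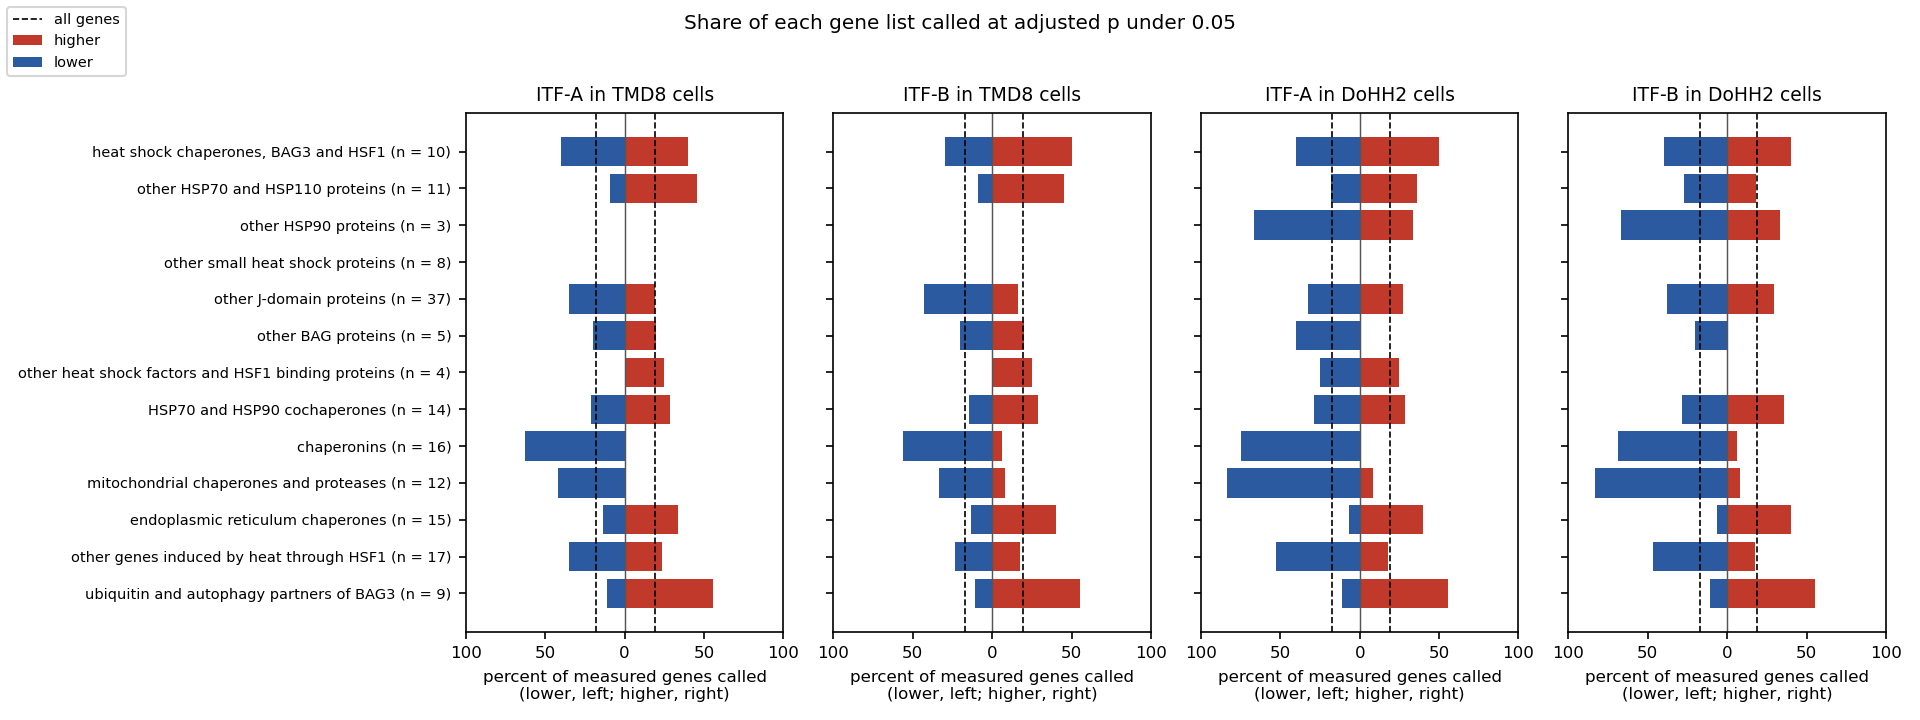
Share of the measured genes of the 10 genes described and of each of the 12 chaperone and partner lists (marker lists are not drawn) that was called higher (right) or lower (left) at an adjusted p under 0.05 in each comparison; dashed lines are the shares over all 20046 genes. Of the lists drawn, chaperonins reach farthest to the left in TMD8 cells, with 10 and 9 of 16 lower, and mitochondrial chaperones and proteases in DoHH2 cells, with 10 and 10 of 12.

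Outside the 10 genes, the changes most like those of BAG3 over the 4 comparisons were those of CCDC85C, at 2.03 and 1.82 in TMD8 and 1.45 and 1.40 in DoHH2 cells under ITF-A and ITF-B (root mean square difference 0.05), and RAB31 (0.07). For HSPH1, which fell most on average, they were those of QRICH1 (0.03), at -0.45 and -0.41 in TMD8 and -0.69 and -0.57 in DoHH2 cells, and NAT10 (0.03). These 4 genes were taken as the nearest of all genes on 4 values each.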

How the data were processed

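RNA of 24 cultures was measured on HumanHT-12 v4 BeadChips. The authors deposited a raw intensity for every probe of every array; detection p-values were not used here. A second table of log2 values was deposited by the authors, whose methods name quantile normalization, ComBat with an unnamed batch and LIMMA; it served as an alternative, each of its 24 columns being closest to its own array. Here intensities were background-corrected (normexp, offset 50), quantile-normalized and fitted in limma 3.58.1 (R 4.3.3) with 8 groups and the chip, with 15 residual degrees of freedom and Benjamini-Hochberg adjustment over 47231 probes. The brightest probe by mean level stood for its gene. Sequences were searched in Python 3.11.15. The test was checked on simulated data. The 10 genes and all lists were chosen with earlier results of these data known; of each list the 2 largest rises and 2 largest falls called in at least 3 of 4 comparisons were named, with others named for their counts. Titles number the experiments 1 to 3, and the number was taken to mark a shared experiment: after subtracting group means, a treated array and the DMSO array of its number correlated only weakly (r -0.09 to 0.14 over single pairs, means 0.02 to 0.06), and each array's best match was its own partner in 1 or 2 of 3 cases. The number of arrays limits the precision (median SE 0.08). Alternatives were the offset, no background correction, median scaling, the deposited log2 table, bright probes, the chip term, each chip, blocks, the arrays of 1 comparison, other probes, a fold minimum and leaving out each array.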

Additional observations from a re-analysis of the deposited data

Results flagged for a closer look

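The change of these genes differed between the lines by the interaction test of limma (TMD8 minus DoHH2 cells). For ITF-A the difference was 1.59 in HSPA1A (SE 0.11), -0.54 in HSPA6 (SE 0.10), 0.30 in HSPA8 (SE 0.09), 0.79 in HSP90AA1 (SE 0.11), -0.40 in HSPB1 (SE 0.10) and 0.49 in BAG3 (SE 0.11). For ITF-B it was 1.76 in HSPA1A, 0.83 in HSP90AA1, -0.42 in HSPB1 and 0.45 in BAG3. Groups of 3 arrays were not searched for single distant samples.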

How the results depend on the processing

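BAG3, HSPA1B and DNAJB1 kept their rise and its call in all 4 comparisons under every alternative run apart from the fold minimum, as did HSPA1A in TMD8 cells. With the fold minimum BAG3 and HSPA1B were still counted in all 4 comparisons, and HSPA1A in TMD8 cells. DNAJB1 met that minimum only under ITF-A in TMD8 cells (1.03). Of 52 called values, 1217 of 1248 fits that left out 1 array and 518 of 583 others kept direction and call; 31 and 57 lost the call and 8 of the others reversed. The count of 10 genes called was 5 on chip 1 alone for ITF-B in DoHH2 and for ITF-A in TMD8 cells, and 2 for each interaction; on chip 2 alone it was 4 for ITF-A and 5 for ITF-B in TMD8 cells and 2 for the ITF-B interaction. On each chip alone fewer arrays enter. With a log2 change of at least 1 it was 4 and 3 in TMD8 cells, 2 and 2 in DoHH2 cells, 2 under DMSO and 1 for each interaction. The share of all genes was not counted with this minimum, on single chips or where 1 array was left out. Whether these counts stand out from all genes was therefore not tested. Leaving out 1 array gave 5 to 9 (ITF-A) and 7 to 8 (ITF-B) in TMD8 cells, 8 to 9 and 7 to 8 in DoHH2 cells, 8 to 9 under DMSO and 5 to 6 and 4 to 5 for the interactions; 5 came without TMD8 ITF-A replicate 1, where HSPA6, HSPB1 and HSF1 lost the call.

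Apart from fits without 1 array, 17 values changed sign, 8 of them with median scaling: HSPB1 in DoHH2 cells (-0.0143 under ITF-A, -0.0115 under ITF-B), HSPA8 in TMD8 cells (0.00727 and 0.00443), HSPA6 in TMD8 cells under ITF-B (0.0591), HSP90AA1 under DMSO (-0.00747) and the HSPA1B interactions (0.0646 and 0.182). The HSPH1 interaction with ITF-B was -0.0288 on chip 1 alone. Read from probe 2, HSPA6 gave -0.0268 in DoHH2 cells under ITF-B, 0.147 and 0.00835 in TMD8 cells and interactions of 0.0864 and 0.0352; read from probe 3, HSP90AA1 gave 0.157 and 0.0771 in DoHH2 cells and -0.184 under DMSO. HSPA6 in TMD8 cells under ITF-B ran from -0.0543 to 0.0318 over the fits without 1 array. Median scaling made 65.5% and 76.3% of interaction calls over all genes positive, against 51.1% and 52.3% with quantile normalization; the cause was not tested. With the experiment as a replicate block, 9 and 7 genes were called in TMD8 cells, 9 and 8 in DoHH2 cells and 6 and 4 for the interactions. Over all genes 19% to 19.3% rose and 17% to 17.9% fell with these blocks. Of the interactions over all genes 11.5% and 11.8% were called positive and 11% and 10.8% negative. The 8 called under DMSO with the replicate blocks (over all genes 18.3% higher and 19.6% lower) are read at experiment 3 of each line, and so are no check of the main comparison. Blocks changed no other call than those given with HSP90AA1, HSPB1 and HSF1. An offset of 16 ended the calls of HSPB1 other than that for ITF-B in DoHH2 cells and the interactions, of HSPA6 for ITF-A in TMD8 cells, of HSP90AA1 under DMSO, and of the HSPA8 and BAG3 interactions. The deposited log2 table added calls of HSP90AA1 under ITF-A and HSPA8 under ITF-B in TMD8 cells and of the HSPA8 interaction under ITF-B.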
